A study of Homo sapiens with 6 samples.

Results

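The genes described here are 7 coregulators of nuclear receptors, taken by name from the 22481 genes of a deposited count table of 143B cells, an established human osteosarcoma line. They are NCOA1, NCOA2, NCOA3, NCOA5, NCOA6 and NCOA7, named as coactivators, and NCOR1, which the table itself describes as a corepressor, so the set holds 6 coactivator genes and 1 corepressor gene. NCOA5 was put in the set because it was among the largest rises with celastrol, and the others were added with the results of the same comparison known. For this reason the celastrol differences of the 7 genes are given as a description with no p-value. How many passed the threshold is given beside how many of all genes passed. All 7 were among the 15387 genes that passed the filter on low counts.

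The 6 libraries are poly(A) RNA-seq of 143B cells grown for 24 h in a single 6-well plate. In 3 wells, drawn at random as controls, culture went on for another 24 h. In the other 3 wells celastrol, a plant triterpene, was added for the same 24 h. The labels state no dose and no vehicle for the control wells. Replicates are wells of 1 plate and 1 cell line, so that errors and p-values measure the spread between wells, which may be technical. Where 3 values are listed for a group, they are in the order of replicates 1, 2 and 3.

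Nuclear receptors are transcription factors that bind hormones, lipids and other small ligands. A receptor holding its ligand recruits coactivators, which bring histone-modifying enzymes and the Mediator complex to the gene, while a receptor without ligand can hold corepressors that bring histone deacetylases. NCOA1, NCOA2 and NCOA3 form the p160 family of coactivators, which dock on receptors and recruit the acetyltransferases CBP and p300 and the arginine methyltransferase CARM1. NCOA6 is a scaffold of the histone methyltransferase complexes built around KMT2C and KMT2D. NCOA5 and NCOA7 are not p160 proteins: NCOA5 binds oestrogen receptors and is annotated in the deposited table with corepressor activity and with negative regulation of insulin receptor signalling, and NCOA7 carries a TLDc domain found in proteins of the oxidative stress response. NCOR1 is the scaffold that holds the deacetylase HDAC3 on unliganded receptors.

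Library totals ran from 38.4 to 39.5 M counts, and no 2 libraries of a group were alike within sampling noise (chi-square over its degrees of freedom 6.49 to 20.9). Along the first principal component, with 62.6% of the variance, control replicate 1 (score 30.2) and celastrol replicate 2 (-35.3) lay nearest the other group. Marker levels are in CPM, the counts-per-million-reads scale of each library total. Of 9 markers of osteoblast and mesenchymal cells, 8 were in the table and 5 were tested, and their summed level was 3654 to 3868 CPM in controls and 2953 to 3019 CPM with celastrol. VIM (2544 to 3524 CPM), SPARC (301 to 405 CPM) and RUNX2 (17.5 to 35.4 CPM) were read throughout, and VIM makes up most of the sum. COL1A1 went the other way, with 7.03 to 10.01 CPM in controls and 11.5 to 15.0 CPM with celastrol, and SPARC overlapped, while COL1A2, SP7 and BGLAP, the last 2 being markers of osteoblast maturation, stood between 0 and 0.16 CPM. Among markers of other cell types, EPCAM was read at 5.65 to 7.25 CPM, and CDH1, KRT20, PTPRC, PECAM1 and CDH5 at 0 to 0.28 CPM. Counts here are shares of a library, so less RNA of a gene per cell and fewer cells that carry it cannot be told apart.

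NCOA5 (NCBI gene 57727) lies on the minus strand of chromosome 20, from 46060991 to 46089962 (GRCh38.p14, RefSeq). Promoter windows are shown for NCOA5 and NCOA7, which differed most upward with celastrol, and for NCOA3, which differed most downward. For NCOA7 the most downstream annotated start was taken, whose window alone of the NCOA7 windows held a motif match. The windows shown are the 250 bases before these annotated starts. They are the RefSeq windows chr20:46089963-46090212 (minus strand), chr20:47501637-47501886 (plus strand) and chr6:125919005-125919254 (plus strand), written 5′ to 3′ with motif matches in capitals.
NCOA5: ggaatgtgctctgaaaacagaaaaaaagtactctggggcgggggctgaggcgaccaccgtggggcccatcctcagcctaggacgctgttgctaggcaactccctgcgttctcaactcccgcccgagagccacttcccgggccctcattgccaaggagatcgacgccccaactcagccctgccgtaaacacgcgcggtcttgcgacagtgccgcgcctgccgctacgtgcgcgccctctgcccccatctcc
NCOA3: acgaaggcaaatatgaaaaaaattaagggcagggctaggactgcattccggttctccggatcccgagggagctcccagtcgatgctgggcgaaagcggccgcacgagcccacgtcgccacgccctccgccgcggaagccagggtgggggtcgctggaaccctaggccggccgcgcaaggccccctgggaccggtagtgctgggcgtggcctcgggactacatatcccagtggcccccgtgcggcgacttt
NCOA7: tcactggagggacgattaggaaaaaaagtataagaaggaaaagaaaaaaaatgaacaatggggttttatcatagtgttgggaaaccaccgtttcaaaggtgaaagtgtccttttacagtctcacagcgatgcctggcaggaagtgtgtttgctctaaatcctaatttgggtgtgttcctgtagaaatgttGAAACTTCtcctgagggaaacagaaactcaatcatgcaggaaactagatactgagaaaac

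Windows were found for 5 of the 7 members (NCOA1, NCOA3, NCOA5, NCOA7 and NCOR1; 10 windows). They were searched on both strands for a nuclear receptor half-site (AGGTCA), an AP-1 site (TGANTCA), a cAMP response element (TGACGTCA), a C/EBP-ATF element (TGATGNAAN), an antioxidant response element (TGACNNNGC), an E-box (CACGTG), a heat shock element (GAANNTTC) and an ETS site (CCGGAAG). The NCOA5 window held none of these letters. The NCOA7 window shown holds the heat shock letters 60 bases before that start, as do 5.78% of all 35116 RefSeq windows (chromosome 8 not used), and the window of the most upstream NCOR1 start holds the ETS letters (8.52% of all windows). The NCOA3 window, the other NCOA7 windows and the remaining windows of NCOA1 and NCOR1 matched none of the motifs. A match is a run of letters, and which of the 3 annotated NCOA7 starts was used cannot be read from counts per gene.

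NCOA5 transcripts were about 4 times as abundant with celastrol. Values in CPM, from here on with TMM scaling of library totals, were 83.2, 71.5 and 85.3 with celastrol and 26.2, 14.7 and 19.3 in controls. The lowest celastrol well had 2.72 times the value of the highest control well, so the groups were far apart. The means were 79.99 ± 7.46 and 20.11 ± 5.79 CPM (SD, n = 3), a 3.98-fold difference, and the fitted log2 fold change was 1.99 ± 0.19 (SE). This was the value of rank 4 among 8698 tested genes whose log2 CPM was 4 or more and rank 95 of all 15387. Control replicate 1, which lay nearest the celastrol libraries over all genes, also had the highest control value of NCOA5, and celastrol replicate 2 had the lowest celastrol value. Without both of them the log2 fold change was 2.30. The part that this well-to-well variation plays was not tested.

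**Figure D1:**
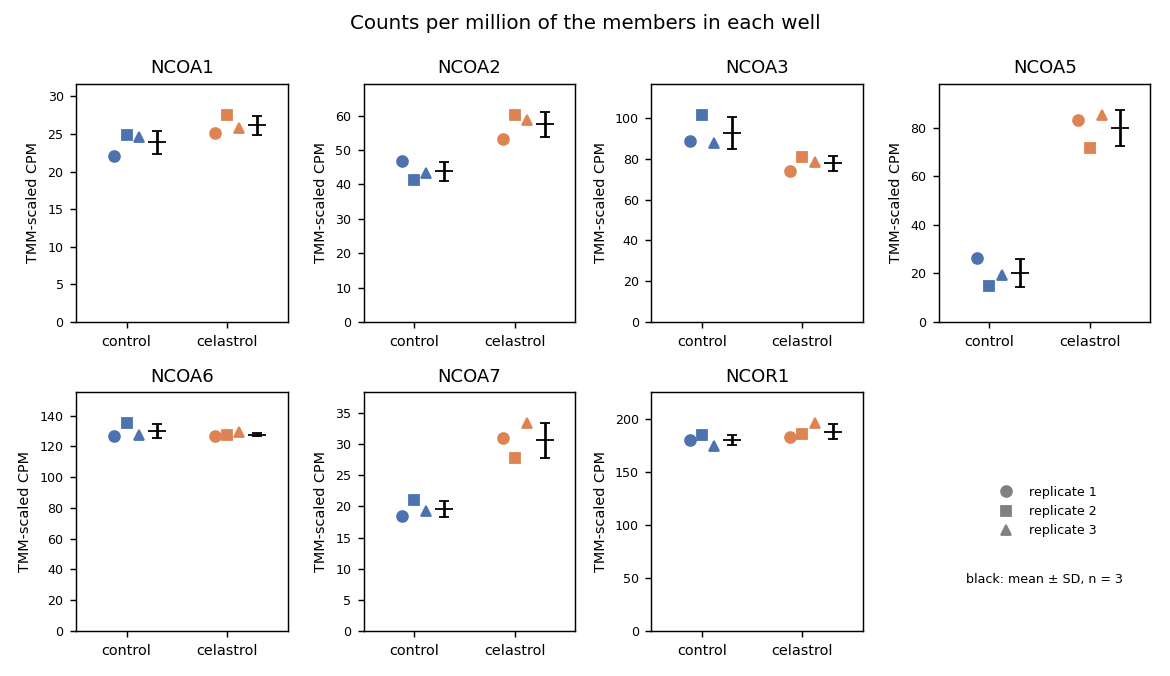
TMM-scaled CPM (vertical axes, from 0) of the 7 genes in 3 control and 3 celastrol wells, with 1 symbol per well and the mean ± SD in black. NCOA5 goes from 14.7 to 26.2 CPM in controls to 71.5 to 85.3 CPM with celastrol. NCOA2 and NCOA7 are higher without overlap, and NCOA1 is higher with a gap of only 0.189 CPM. NCOA3 is lower, and NCOA6 and NCOR1 overlap.

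NCOA5 was also the least even member among untreated wells. Its control values spanned 1.78-fold, with a coefficient of variation of 28.8%, against 2.7% to 8.45% for the other 6 genes. With celastrol its coefficient of variation was 9.33%, near that of NCOA7 (9.18%) and above that of NCOA6 (0.999%). The raw counts behind these values were 560 to 1010 reads in controls and 2823 to 3363 with celastrol, so counting error is small beside the spread between wells.

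Within the p160 family NCOA3 was lower and NCOA2 higher with celastrol, and the sum of the family was nearly level. NCOA3 (gene 8202, chromosome 20, 47501887 to 47656872), the p160 gene known for amplification in breast cancer, had 73.8, 81.0 and 78.5 CPM with celastrol and 88.5, 101.6 and 87.6 CPM in controls. Every celastrol well was below every control well, with a ratio of 0.924 for the nearest pair, and the log2 fold change was -0.25 ± 0.074 (SE). NCOA2 (gene 10499, chromosome 8), a coactivator of glucocorticoid and other steroid receptors, had 53.3, 60.2 and 58.8 CPM with celastrol and 46.9, 41.4 and 43.2 CPM in controls. Its celastrol wells all stood above the controls (log2 fold change 0.39 ± 0.082). NCOA1 (gene 8648, chromosome 2, 24491254 to 24770702), the first p160 coactivator described, had 25.1, 27.6 and 25.8 CPM with celastrol and 22.1, 24.9 and 24.6 CPM in controls. Its groups were only 0.189 CPM apart (log2 fold change 0.13 ± 0.098).

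Summed over NCOA1, NCOA2 and NCOA3, the p160 genes had 152.2, 168.8 and 163.1 CPM with celastrol and 157.4, 167.9 and 155.4 CPM in controls. The means of 161.4 ± 8.44 and 160.2 ± 6.69 CPM (SD, n = 3) differed by less than the spread between wells, and the ranges overlapped. The shares of NCOA3 and NCOA2 in the sum lay apart between groups, and those of NCOA1 overlapped. NCOA3 took 48.5%, 48.0% and 48.1% of p160 counts with celastrol and 56.2%, 60.5% and 56.4% in controls. NCOA2 took 35.6% ± 0.540 (SD, n = 3) with celastrol against 29.8%, 24.7% and 27.8% in controls. These shares depend on no scaling between libraries, since both parts of each ratio come from 1 library, although longer transcripts give more counts.

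**Figure D2:**
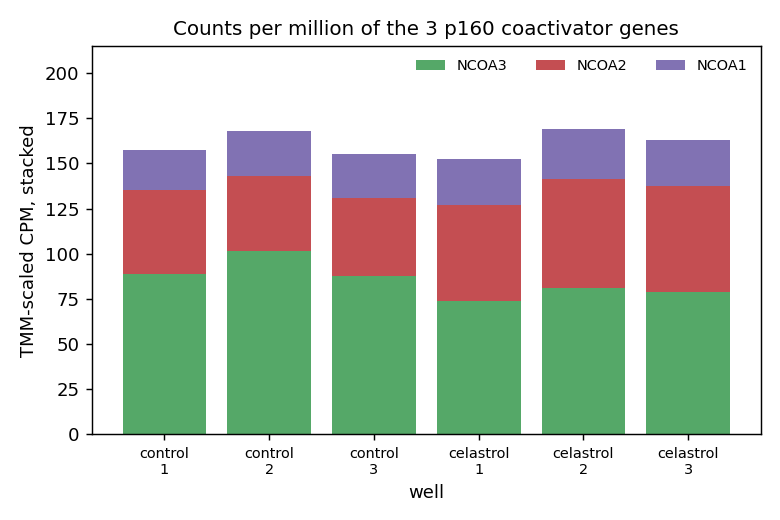
Stacked TMM-scaled CPM (vertical axis, from 0) of NCOA3, NCOA2 and NCOA1 in each of the 6 wells. The stacks reach 155.4 to 167.9 CPM in controls and 152.2 to 168.8 CPM with celastrol, while the NCOA3 part is smaller and the NCOA2 part larger in all 3 celastrol wells.

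NCOA7 (gene 135112, chromosome 6, 125781115 to 125932034) had the next highest log2 fold change of the members after NCOA5, above that of NCOA2. It had 30.9, 27.7 and 33.3 CPM with celastrol and 18.5, 21.0 and 19.3 CPM in controls. The groups did not overlap, the lowest celastrol well being 1.32 times the highest control well (log2 fold change 0.65 ± 0.10). That value is rank 1565 of the 15387 tested genes, far down the order from NCOA5. NCOA6 (gene 23054, chromosome 20, 34714774 to 34825651) had 126.7, 127.2 and 129.1 CPM with celastrol and 126.5, 134.9 and 127.7 CPM in controls. Its groups overlapped (log2 fold change -0.022 ± 0.061), and its sign turned with library size alone (0.019).

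NCOR1 (gene 9611, chromosome 17, 16029157 to 16215534), the corepressor, had 182.7, 185.7 and 195.7 CPM with celastrol and 180.4, 184.7 and 175.0 CPM in controls. Its groups overlapped (log2 fold change 0.063 ± 0.060). GENCODE lists the NCOR1 pseudogenes NCOR1P1, NCOR1P2 and NCOR1P3, and the sources used here do not say how shared reads were counted. Exons of NCOR1 share 2.08% of their bases with the opposite-strand gene PIGL, exons of NCOA3 share 1.14% with SULF2, and exons of NCOA6 share 0.862% with PIGU on the same strand. No exon overlap was found in GENCODE for NCOA1, NCOA2, NCOA5 or NCOA7.

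By edgeR's quasi-likelihood test, 4 of the 7 members passed an adjusted p of 0.05, NCOA2, NCOA5 and NCOA7 higher and NCOA3 lower, where 48.4% of all tested genes passed (23.6% higher and 24.8% lower). The wells of both groups lay apart in 5 of the 7 (4 higher, 1 lower), against 56.9% of all genes (28.4% higher, 28.6% lower). Since the members were chosen from this comparison, nothing is read from these counts. Their median log2 fold change was 0.13, and that of all tested genes was -0.00024. NCOA3 was the member whose place depended on the fit: it did not pass in 4 of 16 alternatives, without celastrol replicate 1, without control replicate 2 and by limma on log2 FPKM with either pseudocount, though its sign was negative in all 16 (-0.31 to -0.18).

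Per gene length, celastrol and control wells put the members in a different order. Levels are compared between genes in deposited FPKM. In controls NCOR1 was highest at 13.5 ± 0.453 FPKM, followed by NCOA6 at 13.1 ± 0.496, and the wells of these neighbours overlapped. NCOA3 came next at 11.4 ± 1.01 FPKM and NCOA5 at rank 4 at 6.105 ± 1.77, each apart from its neighbours. NCOA1 at 2.994 ± 0.187, NCOA7 at 2.549 ± 0.170 and NCOA2 at 2.362 ± 0.157 FPKM closed the order, and NCOA7 and NCOA2 overlapped. With celastrol NCOA5 was first at 24.98 ± 2.28 FPKM, above NCOR1 at 14.5 ± 0.452, NCOA6 at 13.3 ± 0.0645 and NCOA3 at 9.867 ± 0.446, with no overlap between these neighbours. NCOA7 stood at 4.102 ± 0.362, above NCOA1 at 3.374 ± 0.166, which overlapped with NCOA2 at 3.186 ± 0.198 FPKM.

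NCOA5 made up 44.2%, 39.6% and 43.6% of the summed FPKM of the 6 NCOA members with celastrol, and 20.2%, 11.6% and 15.7% in controls. This sum leaves out NCOA4, which is not a member and stood above NCOA5 in both groups. NCOA4 had 46.3 ± 0.930 FPKM with celastrol and 38.7 ± 0.554 in controls. The FPKM of NCOA5 was 1.72 ± 0.147 times that of NCOR1 with celastrol and 0.453 ± 0.133 times in controls (SD, n = 3). The place of NCOA2 in the order rests on gene length. The deposited values give NCOA2 a length of 18279 bases, 2.16 times its longest GENCODE coding transcript of 8447 bases, while the ratio for the other members was 1.01 to 1.23. Per kilobase of the longest coding transcript, NCOA2 in controls had rank 5 at 5.111 ± 0.339 CPM per kilobase and overlapped with NCOA5 at 6.157 ± 1.79, and NCOA7 was last. NCOA5 was first with celastrol and had rank 4 in controls on that scale as well.

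**Figure D3:**
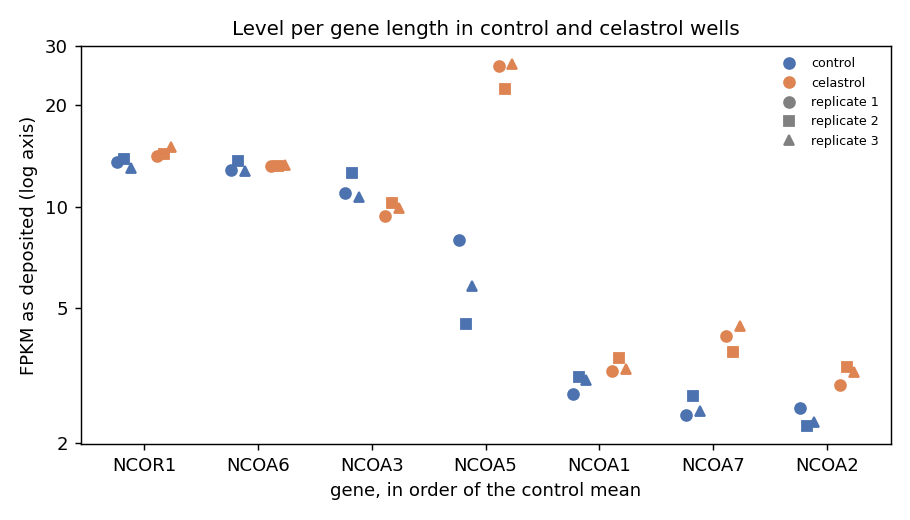
Deposited FPKM (log axis) of the 7 genes in each control and celastrol well, in order of the control mean. NCOA5 has rank 4 in controls (4.49 to 8.00 FPKM) and lies above every other member with celastrol (22.4 to 26.5 FPKM).

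The profile of NCOA5 over the 6 libraries was compared with 8598 protein-coding genes of log2 CPM of at least 4, by the root mean square difference of log2 CPM after each gene's mean was removed. The 5 nearest were EIF5, a translation initiation factor (0.103 log2 units), HOXC6, a homeobox factor (0.149), SLC6A9, a glycine transporter (0.159), ATF5, a stress-responsive transcription factor (0.175), and DKK1, a WNT antagonist (0.182). The median over all candidates was 1.03, and the nearest other member was NCOA7 at 0.751. EIF5 had 364.9, 368.6 and 356.3 CPM with celastrol and 129.8, 68.0 and 93.1 CPM in controls. Its control wells stood in the order of those of NCOA5 and its celastrol wells did not. The measure picks genes with a like difference between groups, here 3.41-fold to 4.55-fold, and a like order of wells, so nothing is read from either.

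**Figure D4:**
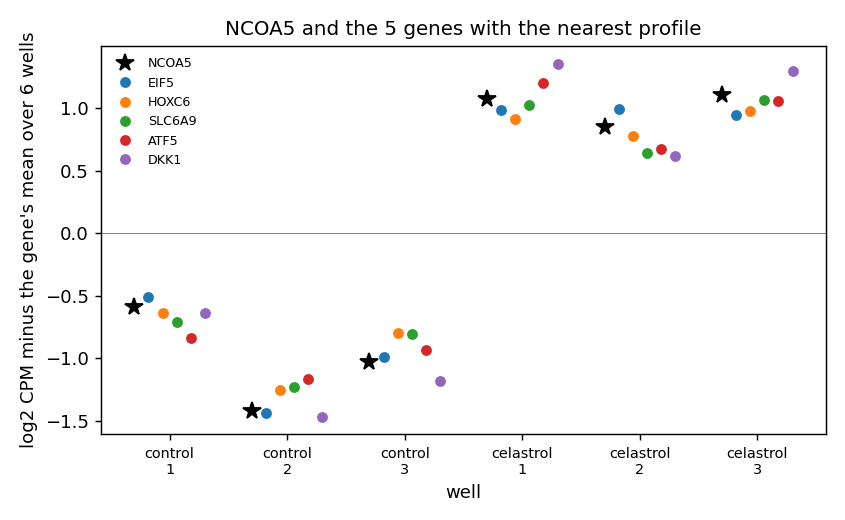
Log2 CPM minus each gene's mean over the 6 wells (vertical axis), for NCOA5 (stars) and the 5 genes of nearest profile in each well. In controls NCOA5 lies at -0.59, -1.42 and -1.03 and with celastrol at 1.07, 0.85 and 1.11, and the 5 genes are negative in every control well and positive in every celastrol well.

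Of the 6 tested coding genes nearest to NCOA5 on chromosome 20, 1 rose, 2 fell and 3 did not pass, where 48.4% of all genes passed. Adjusted p-values here and in the paragraphs that follow are from edgeR's quasi-likelihood test over all 15387 genes. The potassium-chloride carrier gene SLC12A5 ends 0.841 kb from NCOA5 and had 2.43 to 3.55 CPM with celastrol and 2.03 to 2.75 CPM in controls (log2 fold change 0.24 ± 0.26, adjusted p = 0.462). The metalloprotease gene MMP9, 44.4 kb away, fell (-2.83 ± 0.57, adjusted p = 0.000644) on few reads, 1, 17 and 18 with celastrol and 97, 52 and 102 in controls. ZNF335, 88.8 kb away, did not pass (0.12, adjusted p = 0.312), but did without control replicate 1 (adjusted p = 0.0172). On the other side, the cadherin gene CDH22 fell (-0.79 ± 0.29, adjusted p = 0.0316), a call lost in 8 of 15 alternatives, among them those without control replicate 3 (0.173) or without celastrol replicate 1 (0.0502), 2 (0.0703) or 3 (0.0823). SLC35C2, 256 kb away, rose slightly (0.30 ± 0.072, adjusted p = 0.0019), and ELMO2 did not pass (-0.085, adjusted p = 0.389). NCOA3 lies 1.41 Mb beyond NCOA5, with 8 tested protein-coding genes between them, of which 2 were higher and 2 lower.

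NCOA4, a coactivator name whose protein is best known as the receptor for autophagy of ferritin, had 200.6, 194.6 and 203.5 CPM with celastrol and 168.8, 170.8 and 176.0 CPM in controls. It rose slightly, without overlap (0.22 ± 0.058, adjusted p = 0.00529).

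Coactivator partners, a list of enzymes and adaptors that also holds NCOA4, were more often higher than lower. Of 25 tested, 13 rose and 2 fell, 52% and 8% against 23.6% and 24.8% of all genes, with a median log2 fold change of 0.17. KAT2B, the acetyltransferase PCAF, rose from 10.58 to 21.46 CPM (1.02 ± 0.17, adjusted p = 0.000188). CREBBP and EP300, which encode the acetyltransferases CBP and p300, rose as well (0.54, adjusted p = 4.17e-06, and 0.32, adjusted p = 0.000398). So did MED1, the Mediator subunit that contacts receptors (0.44, adjusted p = 5.2e-05). The list's other acetyltransferase genes KAT2A (0.018, adjusted p = 0.871) and KAT5 (0.10, adjusted p = 0.366) did not pass. Nor did the Mediator genes MED14 (-0.095, adjusted p = 0.378) and MED24 (0.14, adjusted p = 0.171). CREBBP, EP300, MED1 and these genes that did not pass were named after their values were seen. SRA1, an RNA and protein coactivator gene (0.54 ± 0.10, adjusted p = 0.000223), and PPARGC1A, the coactivator PGC-1α (0.68 ± 0.17, adjusted p = 0.00345), rose too, the last from only 3.968 to 6.357 CPM. Those that fell were CARM1, the methyltransferase partner of the p160 proteins (-0.42 ± 0.070, adjusted p = 8.44e-05), and CALCOCO1 (-0.40 ± 0.091, adjusted p = 0.00127).

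The 9 genes of the KMT2C and KMT2D complexes, in which NCOA6 sits, held 3 that rose, 33.3% against 23.6% of all genes higher and 48.4% called in either direction. These were PAGR1, an adaptor subunit (0.73 ± 0.13, adjusted p = 0.000227), the methyltransferase KMT2D (0.39 ± 0.069, adjusted p = 0.000143) and the core subunit WDR5 (0.31 ± 0.068, adjusted p = 0.00102). By edgeR 0 fell. Before adjustment (p under 0.05) that count was again 0, as it was with DESeq2 and with limma-voom. The list's median was 0.11, and its range reached from 0.0012 for KDM6A to 0.73.

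Of 20 corepressor genes 6 rose and 4 fell (30% and 20%), shares near the 23.6% and 24.8% of all genes, with a median of 0.041. Of the partners of NCOR1 in its complex, GPS2 rose from 50.04 to 74.72 CPM (0.58 ± 0.081, adjusted p = 1.34e-05), and TBL1X rose from 36.52 to 43.58 CPM (0.25 ± 0.082, adjusted p = 0.0153), a call lost without celastrol replicate 3 (0.0876) or control replicate 2 (0.0516). The deacetylase HDAC3 (0.027, adjusted p = 0.80) and TBL1XR1 (0.011, adjusted p = 0.921) did not pass, and TBL1X, HDAC3 and TBL1XR1 were named after their values were seen. HDAC1, a deacetylase of other corepressor complexes (0.62 ± 0.064, adjusted p = 4.31e-07), and SAFB2, a scaffold attachment factor (0.55 ± 0.084, adjusted p = 3.7e-05), rose. CORO2A, an actin-binding component reported in NCOR complexes (-0.87 ± 0.12, adjusted p = 1.73e-05), NRIP1, the ligand-dependent corepressor RIP140 (-0.64 ± 0.11, adjusted p = 7.17e-05), and RCOR1, the partner of the demethylase KDM1A (-0.45 ± 0.078, adjusted p = 0.000118), fell. KDM1A, named after its value was seen, fell as well (-0.43 ± 0.068, adjusted p = 5.05e-05).

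The receptors themselves were more often lower. Of 48 nuclear receptor genes listed, 36 were tested, and 6 rose and 17 fell, 16.7% and 47.2% against 23.6% and 24.8% of all genes, with a median of -0.28. NR1D1, the circadian repressor REV-ERBα, fell from 48.24 to 15.43 CPM (-1.64 ± 0.18, adjusted p = 5.53e-05). RARB, a retinoic acid receptor, fell from 11.07 to 3.848 CPM (-1.52 ± 0.18, adjusted p = 2.56e-06) and ESR2, oestrogen receptor β, from 10.32 to 4.018 CPM (-1.36 ± 0.20, adjusted p = 2.03e-05). RXRA, the common heterodimer partner, rose from 33.98 to 47.02 CPM (0.47 ± 0.087, adjusted p = 0.000231). THRB, a thyroid hormone receptor, rose (0.38 ± 0.13, adjusted p = 0.0205), a call lost without celastrol replicate 3 (0.138) or control replicate 3 (0.109). NR1H3, the oxysterol receptor LXRα, rose from 3.798 to 5.55 CPM (0.55 ± 0.21, adjusted p = 0.0385), and its call was lost without any 1 celastrol replicate (0.0768 to 0.0887) or without control replicate 2 (0.17) or 3 (0.123). Of receptors, 3 were higher when celastrol replicate 1 or control replicate 2 was left out, 2 without celastrol replicate 3 and 1 without control replicate 3.

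Of 28 genes known as receptor targets, 21 were tested, and 2 rose and 7 fell (9.52% and 33.3% against 23.6% and 24.8% of all genes), with a median of -0.40. In all 42.9% passed, less than the 48.4% of all genes. Targets of the LXR receptors split. The cholesterol exporters ABCG1 (40.43 to 8.283 CPM, -2.29 ± 0.20, adjusted p = 5.6e-06) and ABCA1 (15.68 to 4.089 CPM, -1.94 ± 0.18, adjusted p = 2.36e-07) fell, as did MYLIP, a ligase for the LDL receptor named after its value was seen (-1.73, adjusted p = 6.69e-08). SREBF1, which encodes a regulator of lipid synthesis, rose (0.52 ± 0.10, adjusted p = 0.000894). PER1, a clock gene that glucocorticoids induce, fell from 93.36 to 27.02 CPM (-1.79 ± 0.24, adjusted p = 0.00177), and the other glucocorticoid targets of the list, named after their values were seen, were mixed. KLF9 (-1.46, adjusted p = 1.19e-08) and SGK1 (-0.34, adjusted p = 0.00375) fell, and FKBP5 did not pass (-0.085, adjusted p = 0.36). TSC22D3 did not pass (-0.68, adjusted p = 0.101), but did in 4 of 16 alternatives. These were limma-voom with all libraries (-0.61, adjusted p = 0.0153) and edgeR without control replicate 1 (0.000346), without control replicate 2 (0.0456), or without both celastrol replicate 2 and control replicate 1 (0.00181). PLIN2, a lipid droplet protein gene and PPAR target, rose from 136.96 to 326.01 CPM (1.25 ± 0.061, adjusted p = 1.24e-10).

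Of 3 tested TLDc-domain relatives of NCOA7, 1 rose and 2 fell, where 23.6% of all genes were higher and 24.8% lower. TBC1D24, which encodes a vesicle trafficking protein, rose (0.70 ± 0.11, adjusted p = 3.39e-05), while MEAK7 (-0.76 ± 0.080, adjusted p = 6.64e-07) and the oxidation resistance gene OXR1 (-0.49 ± 0.11, adjusted p = 0.00122) fell.

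**Figure D5:**
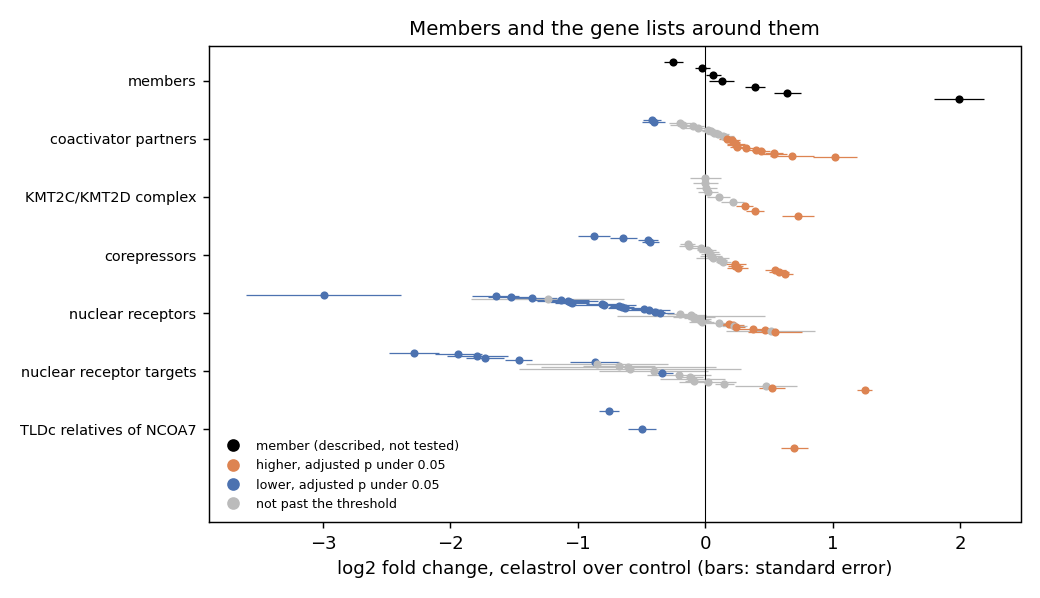
Log2 fold change of celastrol over control (horizontal axis, bars are standard errors) for the 7 members and for each tested gene of the 6 lists, 1 point per gene. NCOA5 at 1.99 is the highest point shown, coactivator partners lie mostly above 0, and nuclear receptors and their targets reach below -1.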

How the data were processed

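Per the labels' protocols, RNA from 6 wells was selected for poly(A) and made into strand-marked (dUTP) libraries. Per the submitters' processing notes, the build was hg38 and the tools named are HISAT2 2.2.1, cutadapt 1.9, edgeR, StringTie 2.1.6 and DESeq2. Their roles, the annotation and whether strand was used in counting: not given in the sources used here. In the deposited count table each value is a raw count of reads for 1 gene. The deposited FPKM values follow from those counts and 1 length per gene (within 1e-06 in all 20198 genes with reads in at least 2 libraries).

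Genes were kept with filterByExpr (15387 of 22481), and TMM factors scaled the libraries. The groups were tested with edgeR's quasi-likelihood test (edgeR 4.0.16, R 4.3.3, robust dispersion, Benjamini-Hochberg adjustment over all genes, threshold 0.05). It was also run on simulated counts with the same dispersion for every gene, which cannot measure its error rate in these data. Standard errors were derived from the fold change and its F statistic (|log2 fold change| / √F). Log2 CPM profiles used a prior count of 2. Members and lists were chosen with earlier results of these data known. Named genes are all members, NCOA4, up to 3 called genes per direction and list with a log2 CPM of at least 2, the 3 nearest tested protein-coding genes on each side of NCOA5 and the 5 of nearest profile. Exceptions are marked, and 1 gene that the rule names is not reported here. Positions and promoter windows are from RefSeq on GRCh38.p14, and exons from GENCODE 29, both of the assembly hg38 names. A count of 0 allows up to 3 counts, 0.076 to 0.078 CPM, counting error only. Alternatives were other scalings, filters, tools (DESeq2 1.42.0, limma 3.58.1), log2(FPKM + 1) and log2(FPKM + 0.1), the replicate number as a block, and libraries left out.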

Additional observations from a re-analysis of the deposited data

How the results depend on the processing

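Under 16 alternatives the log2 fold change of NCOA5 was positive in all, from 1.81 to 2.30 with libraries left out, the latter without both celastrol replicate 2 and control replicate 1. Members past the threshold were 3 or 4. Of all genes, between 7541 of 22481 (no filter on low counts) and 5780 of 10023 (at least 10 CPM in 3 libraries) passed. The member count rests on the values that chose the members and supports nothing. With at least 10 CPM required in 3 libraries, 14 of 24 nuclear receptors passed, 4 higher and 10 lower. Under that filter 5780 of all 10023 tested genes passed, 2808 higher and 2972 lower, so the receptors passed about as often as all genes. Of the 6 neighbouring pairs in the order of control FPKM, the number that overlapped was 2 with all wells and 1 to 2 with a control replicate left out. The log2 ratio of the summed p160 counts ran from -0.024 to 0.051. With library size alone all genes shifted by 0.041 (log2). Celastrol and control wells share replicate numbers, but deviations of same-numbered wells correlated at only 0.0341 to 0.0582, so the number was not taken as a pairing, although each of the 6 libraries correlated best with its own number. With the number as a replicate block 7759 of all 15387 genes passed, against 7449 without, and 4 members passed. The log2 fold change of NCOA5 was then 2.02. Length per gene limits the order of levels, and NCOA2 most. The order per kilobase of the longest coding transcript and the alternatives for the p160 sum were chosen after seeing the data.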
